A study of Mus musculus with 24 samples.

Results

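The samples described here are the livers of control mice kept in 2 ways, as fresh-frozen pieces and as formalin-fixed, paraffin-embedded (FFPE) pieces left in formalin for 3 weeks. They were chosen by label and animal number from the deposited count table. Of the 24 labelled samples of the series, 22 had a column in the table and 7 belong to this comparison, namely FFPE 3 wk pieces of animals 02, 03, 04 and 06 and fresh-frozen pieces of animals 02, 04 and 06. A shared number marks pieces of the same liver, so both pieces were compared for 3 livers, and the frozen piece of animal 03 was not analysed here. All genes of the table were compared. The animals were female B6C3F1 mice, 5 to 6 weeks old when bought and acclimatized for 7 days or more, dosed by gavage with corn oil and nothing else over 21 days, and their tissue was taken 4 h after the last dose. They received no furan, the liver toxicant given at 8 mg per kg of body weight a day to the other animals of the series. Frozen RNA was prepared from about 100 mg of tissue with a midi column kit and had RNA integrity numbers above 8.9. FFPE RNA was prepared from 2 sections of 10 µm with an FFPE kit and had integrity numbers of 1.3 to 2.4. The kind of piece therefore cannot be told apart from the kit, the amount of tissue and the number of sections. Replicates are separate animals. The comparison asks how far the transcript counts of a long-fixed block match those of the frozen piece.

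Formalin crosslinks RNA to protein and adds hydroxymethyl groups to its bases, and RNA from old or long-fixed blocks is broken into short fragments. The libraries were made by selection with oligo(dT), which binds poly(A) tails, so from broken RNA this step retains mainly fragments next to the tail of an mRNA. RNAs without a tail, such as rRNA, small nuclear and small nucleolar RNAs (snRNAs and snoRNAs) and most histone mRNAs of dividing cells, are largely removed from intact RNA by the same step. The liver itself is mostly hepatocytes, which secrete albumin, apolipoproteins, complement and clotting factors, alongside endothelial cells of the sinusoids, Kupffer cells (resident macrophages) and stellate cells.

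The frozen libraries held 44980028 to 52810289 counts and the FFPE 3 wk libraries 3666173 to 10481659, the lowest in animal 02. Libraries of a group correlated across genes, with Pearson's r on log2 CPM of 0.997 in frozen pieces and 0.916 to 0.954 in FFPE 3 wk pieces, and no pair of libraries held the same counts. Markers of hepatocytes were present in all 7 libraries, as the labels say, at a summed 178400 to 184700 CPM (counts scaled to library size, for summed markers to the total count) in frozen and 109300 to 127800 CPM in FFPE 3 wk pieces. Before any comparison, 2 FFPE 3 wk libraries stood apart. The 14 skeletal muscle markers summed to 7158 counts in animal 03 and 2310 counts in animal 06, against 22 counts in animal 02, 40 counts in animal 04 and 44 to 68 counts in the frozen pieces. Acta1, the actin of skeletal muscle, had 1651 counts in animal 03 and 815 in animal 06, and 0 to 3 counts in each of the other 5 libraries. Ckm, the muscle creatine kinase, had 201 and 208 counts in those animals and at most 2 counts elsewhere. The plot of library properties shows this beside the number of genes with few counts.

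**Figure D1:**
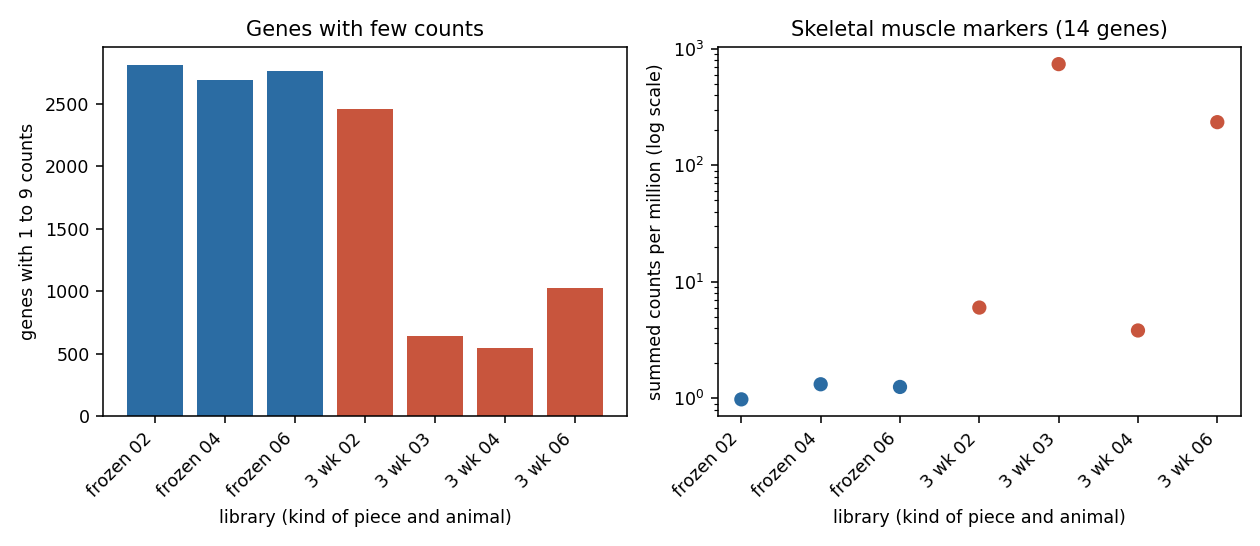
Genes with 1 to 9 counts (left, bars from 0) and the summed CPM of 14 skeletal muscle markers (right, log scale) in each library, frozen in blue and FFPE 3 wk in red, with animal numbers. Frozen libraries had 2692 to 2809 genes with 1 to 9 counts. The FFPE 3 wk libraries of animals 03, 04 and 06 had 544 to 1027, and that of animal 02, the shallowest, had 2457. The muscle markers reached 737 CPM in animal 03 and 234 CPM in animal 06, and 0.978 to 6.00 CPM in the others.

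Across the 12145 genes with enough counts to test, 3188 differed between FFPE 3 wk and frozen pieces at an adjusted p under 0.05 by edgeR's quasi-likelihood test, which is 26.2% of all tested genes. Higher counts in FFPE 3 wk pieces were called for 1605 genes (13.2%) and lower counts for 1583 (13%). Libraries of the groups did not overlap for 43.6% of genes, all FFPE 3 wk values being higher for 18.4% and lower for 25.2%. A difference of at least 2-fold was seen for 2217 of the called genes (18.3% of those tested), 1221 higher (10.1%) and 996 lower (8.20%). The median log2 fold change over all tested genes was -0.03, and it was 0.008 to 0.065 when libraries were scaled in 3 other ways. With the animal as a block it was -0.34, in a fit without FFPE 3 wk animal 03, as in all block fits below. By limma voom with group variances it was -0.33. Values close to 0 therefore have no direction. Frozen pieces were much more alike than FFPE 3 wk pieces, with a common dispersion of 0.0188 within frozen and 0.165 within FFPE 3 wk pieces. Leaving out 1 frozen library lowered the count of called genes to 1978 (without animal 02), 2004 (without animal 04) or 1988 (without animal 06). Without the FFPE 3 wk libraries of animals 03 and 06, an alternative chosen after seeing their muscle transcripts, 5905 genes were called.

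Many of the largest rises were in RNAs that carry no poly(A) tail. Rn45s, the precursor of the 18S, 5.8S and 28S rRNAs, stood at 1788, 1331 and 1912 CPM in the frozen pieces of animals 02, 04 and 06. In FFPE 3 wk pieces of animals 02, 03, 04 and 06 it stood at 57113, 94089, 47102 and 72016 CPM. Every FFPE 3 wk library was far above every frozen one, by a log2 fold change of 5.33 ± 0.28 (SE; adjusted p = 6.13e-06). Rpph1, the RNA of the tRNA-processing enzyme RNase P, had 0.141, 0.0968 and 0.0397 CPM in frozen and 23.5, 66.1, 18.1 and 41.9 CPM in FFPE 3 wk pieces (8.61 ± 0.73; adjusted p = 5.83e-05). The related Rmrp, the RNA of RNase MRP, was higher by 8.10 ± 1.43, with 22.5, 56.6, 15.5 and 0.707 CPM in FFPE 3 wk pieces. Its level in animal 06 was thus far below that of the other 3 animals, though still above the 0.0471 to 0.0992 CPM of the frozen pieces. Vaultrc5, a vault RNA, had 1 count in the 3 frozen libraries together and 486 counts in the 4 FFPE 3 wk libraries. This gives a ratio with a 95% counting interval of 365.5 to 80982. Such intervals and the floors used below cover counting error only. Rnu12, the U12 snRNA of the minor spliceosome, had no count in frozen pieces and 135 counts in FFPE 3 wk pieces, at least 189-fold higher against a floor of 3 counts over the group. It was present in all 4 of those libraries, at 2.07, 6.46, 4.63 and 1.41 CPM. Its call was lost when the animal was a block in the fit, which also left out animal 03.

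The 5 structural RNAs just described were the only ones of that list to pass the filter on low counts, of 12 in the table. Part of the sequence also occurs in transcripts of other genes, 68.15% in Rpph1, 53.9% in Rnu12 and 32.3% in Rmrp, and 0% in Vaultrc5. For Rn45s no value was available. Counts on the genes with shared sequence are therefore not shown to come from these RNAs alone. A gene present in FFPE 3 wk pieces alone could pass the filter only through them, so the count of 5 higher of 5 tested describes these genes and not the list. Without Rn45s, the summed share of structural RNAs was 3.41e-05% to 5.11e-05% of counts in frozen pieces and 0.00518% to 0.0165% in FFPE 3 wk pieces. With 4 libraries against 3, an exact permutation test that shuffles all libraries cannot give a p below 0.0571. All shares named here for which the groups do not overlap have that p (two-sided, 0.0784 after adjustment over 59 classes). The permutation tests of shares and of detected genes did not use the pairing of pieces from the same liver.

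Small nucleolar RNAs guide the chemical modification of rRNA and come in a C/D box and an H/ACA class. They are cut from introns or made as short transcripts and have no poly(A) tail. Of 114 snoRNA and scaRNA genes in the table, 94 had a count and 14 were tested. Several of the 14 could pass the filter on low counts only through FFPE 3 wk pieces, so 8 called higher, none lower and 6 not passed describe these genes and not the list. Snord17, Snord15b and Snord104 are shown because they are the tested snoRNAs in which both box motifs were found. The sequences are those of GENCODE M21 (GRCm38), 5′ to 3′, with capitals for a C box (TGATGA, within the first 18 bases) and a D box (CTGA, within the last 14 bases) on the strand of the gene. Both motifs were found in 302 of 1507 annotated snoRNA transcripts.
Snord17: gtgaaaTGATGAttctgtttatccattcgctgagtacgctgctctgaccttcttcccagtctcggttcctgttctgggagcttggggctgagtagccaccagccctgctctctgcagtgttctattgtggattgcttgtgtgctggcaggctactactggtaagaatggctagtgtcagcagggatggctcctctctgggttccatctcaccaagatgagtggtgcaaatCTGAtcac
Snord15b: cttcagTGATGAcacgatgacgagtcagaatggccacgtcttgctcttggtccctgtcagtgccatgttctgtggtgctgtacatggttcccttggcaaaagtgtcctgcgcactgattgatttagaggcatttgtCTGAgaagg
Snord104: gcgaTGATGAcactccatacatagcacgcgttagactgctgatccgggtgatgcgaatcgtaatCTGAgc

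Snord17 is a long C/D snoRNA of 238 nt on the minus strand of chr2:144265979-144266216. It had 0.0471, 0.0775 and 0 CPM in frozen and 14.2, 21.8, 5.37 and 11.2 CPM in FFPE 3 wk pieces, a log2 fold change of 8.15 ± 1.11 (adjusted p = 0.000784). Snord104, of 70 nt on the plus strand of chr11:106500993-106501062, rose from 0.278 to 0.872 CPM in frozen pieces to 7.57 to 11.1 CPM in FFPE 3 wk pieces (3.92 ± 0.72; adjusted p = 0.00388). For both, all FFPE 3 wk libraries were above all frozen libraries. Snord15b, of 145 nt on the minus strand of chr7:99479563-99479707, lies wholly within sequence that another annotated transcript also holds. It had 4 counts in frozen and 197 counts in FFPE 3 wk pieces (7.34 ± 1.35; adjusted p = 0.00395), and its call was lost with the animal as a block. Snora74a had no count in frozen pieces and 203 counts in FFPE 3 wk pieces, at least 285-fold higher, and also shares its whole sequence with other transcripts. Because the kit does not mark strand and snoRNAs sit inside host transcripts, reads of a snoRNA and of its host cannot be told apart at these genes.

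**Figure D2:**
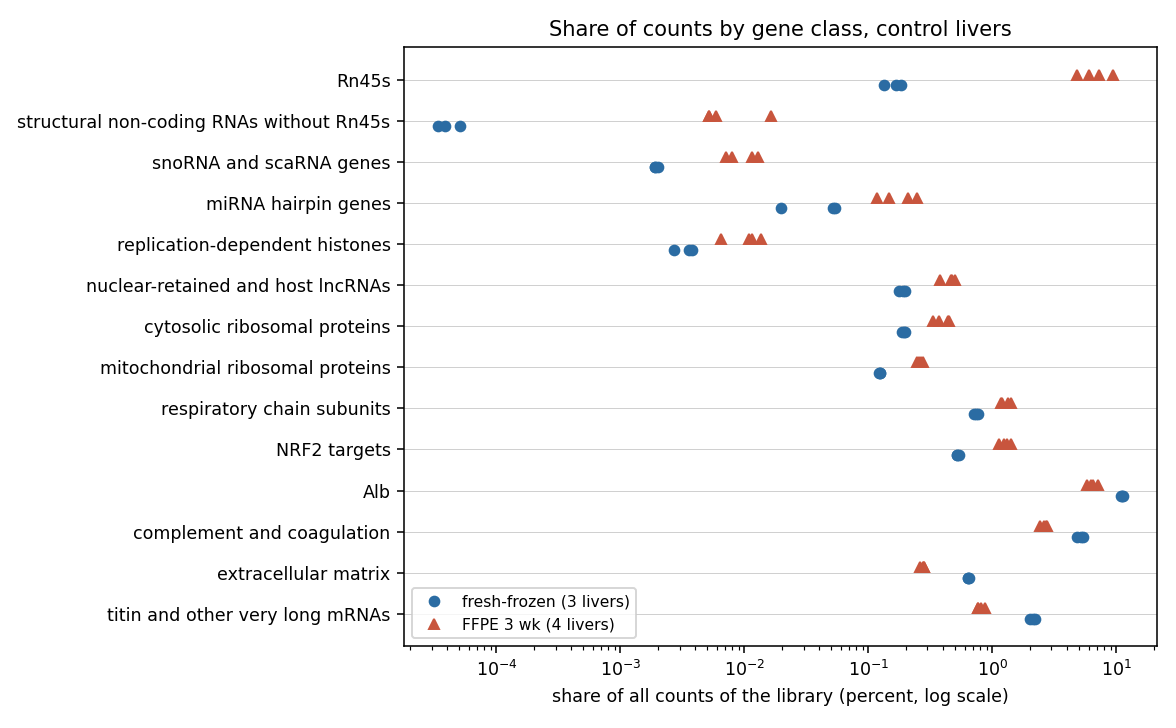
Share of all counts (percent, log scale) that fell on each of 14 gene classes, 1 point per library, with frozen pieces as circles and FFPE 3 wk pieces as triangles. RNAs without a poly(A) tail and classes of short mRNAs lie to the right in FFPE 3 wk pieces, and albumin, complement, matrix and very long mRNAs lie to the left. Structural RNAs other than Rn45s rose from at most 5.11e-05% to at least 0.00518%.

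Replication-dependent histone mRNAs end in a stem-loop in place of a poly(A) tail. Their summed share was 0.00271% to 0.00377% in frozen and 0.00646% to 0.0137% in FFPE 3 wk pieces, without overlap. In every library most counts of this class fell on 1 gene, Hist1h2bc, so the rise describes that gene more than the class. Whether its transcripts carried a poly(A) tail was not tested. Only 5 of 68 histone genes could be tested. Hist1h2bc, an H2B gene, rose from 20.3 ± 3.57 CPM (SD, n = 3) to 79.3, 117, 51.2 and 84.9 CPM (2.04 ± 0.29; adjusted p = 0.000962). Hist4h4, an H4 gene, rested on 1 count against 69 counts, was absent from the FFPE 3 wk library of animal 03, and lost its call when any 1 frozen library was left out, with the animal as a block and with no filter on low counts. The other 3 tested histone genes did not pass, and 1 of them, Hist1h1c, was lower without overlap (-2.16 ± 1.28; adjusted p = 0.267).

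Counts on miRNA hairpin genes came mostly from Mir6236. A poly(A)-selected library of this kind measures RNA over the hairpin locus and not mature miRNAs. Among 1080 hairpin genes, 285 had a count, 6 were tested and 1 was called, Mir6236. It stood at 183, 487 and 534 CPM in frozen and 1345, 2392, 1114 and 2043 CPM in FFPE 3 wk pieces (2.10 ± 0.40; adjusted p = 0.00482). The frozen piece of animal 02 was lowest, and the groups did not overlap. The mature miRNA annotated there is shown because this 1 gene carried the class. It is given from RefSeq (GRCm38.p6, plus strand of chr9:110281353-110281371), with the seed (bases 2 to 8) in capitals.
mmu-miR-6236: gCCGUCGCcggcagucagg

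Long non-coding RNAs that stay in the nucleus or host snoRNAs were mostly higher as well. Of 20 tested genes of this list 12 were higher, 2 were lower and 6 did not pass (median 1.62). Malat1, an abundant nuclear RNA whose 3′ end is a triple helix without a poly(A) tail, had 222, 232 and 228 CPM in frozen and 2468, 2736, 1700.3 and 2538 CPM in FFPE 3 wk pieces. Its log2 fold change of 3.38 ± 0.17 (adjusted p = 5.8e-06) exceeded the spread within either group. Neat1, the scaffold RNA of paraspeckles, rose by 1.58 ± 0.17, from 163 to 263 CPM to 615 to 748 CPM. Gas5, a snoRNA host gene, rose from 19.3 to 21.3 CPM to 100.5 to 135 CPM (2.55 ± 0.16), and the hosts Snhg8 (3.16 ± 0.26) and Snhg6 (3.71 ± 0.33) rose further. Xist, the RNA of the inactive X chromosome, was lower instead (-0.51 ± 0.12; adjusted p = 0.0127), as was 2900097C17Rik. Over all tested genes annotated as lincRNA, 24 of 77 were higher and 3 lower (median 1.24), and of protein-coding genes 1508 of 11731 were higher and 1568 lower (median -0.05).

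Among mRNAs, the largest rises at high levels were in genes with short coding sequences. Ptms, which encodes the small acidic nuclear protein parathymosin in 303 nt, had 202, 201 and 201 CPM in frozen and 3032, 2843, 3158 and 3477 CPM in FFPE 3 wk pieces. The 7 libraries fell into groups far apart, with a log2 fold change of 3.96 ± 0.10 (adjusted p = 3.67e-07). Chchd2, a protein of the mitochondrial intermembrane space encoded in 459 nt, rose from 42.6, 36.4 and 37.6 CPM to 913, 809.8, 960.1 and 974 CPM (4.56 ± 0.13), although 48.4% of its transcript sequence also occurs in other genes. Tmsb4x encodes thymosin beta 4, which binds actin monomers. It rose from 31.8, 49.2 and 25.4 CPM to 358, 419, 671 and 388 CPM (3.70 ± 0.32; adjusted p = 6.02e-05), without overlap. Its whole coding sequence (X chromosome, minus strand, GENCODE M21) is printed to show how short such a message is, with start and stop codons in capitals.
Tmsb4x coding sequence: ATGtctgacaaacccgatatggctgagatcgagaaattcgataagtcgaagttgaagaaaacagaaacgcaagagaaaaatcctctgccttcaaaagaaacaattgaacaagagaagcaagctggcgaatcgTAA

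The metallothioneins Mt1 and Mt2, metal-binding proteins of 183 coding nt each, rose by 3.45 ± 0.22 and 3.58 ± 0.25. Mt1 went from 33.3, 36.6 and 40.2 CPM to 286, 474, 354 and 494 CPM. Ndufa2, a small subunit of respiratory complex I, rose by 3.47 ± 0.23. These genes were among the 8 largest rises of genes whose higher group averaged 200 CPM or more.

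Fold change followed length over the whole transcriptome. Among protein-coding genes with a mean of at least 5 CPM, the 184 genes with transcripts of at most 750 nt had a median log2 fold change of 2.26, and 81.5% of them were called higher. The 1248 genes with transcripts above 6000 nt had a median of -0.62, with 3.05% called higher and 30.8% called lower. By coding length the medians fell from 1.47 at up to 500 nt to -0.87 above 5000 nt. Across 9430 genes Spearman's rho with fold change was -0.491 for transcript length, -0.532 for coding length, -0.212 for the length of the 3′ UTR and 0.194 for GC content. These are descriptions across genes, which are not independent replicates. Within each of 3 livers, the log2 ratio of its 2 pieces had rho with transcript length of -0.413 (animal 02), -0.489 (animal 04) and -0.398 (animal 06). In each of 4 ranges of GC content, transcripts of at most 1000 nt had a median of 1.35 to 1.83 and transcripts above 4000 nt one of -0.58 to -0.48.

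**Figure D3:**
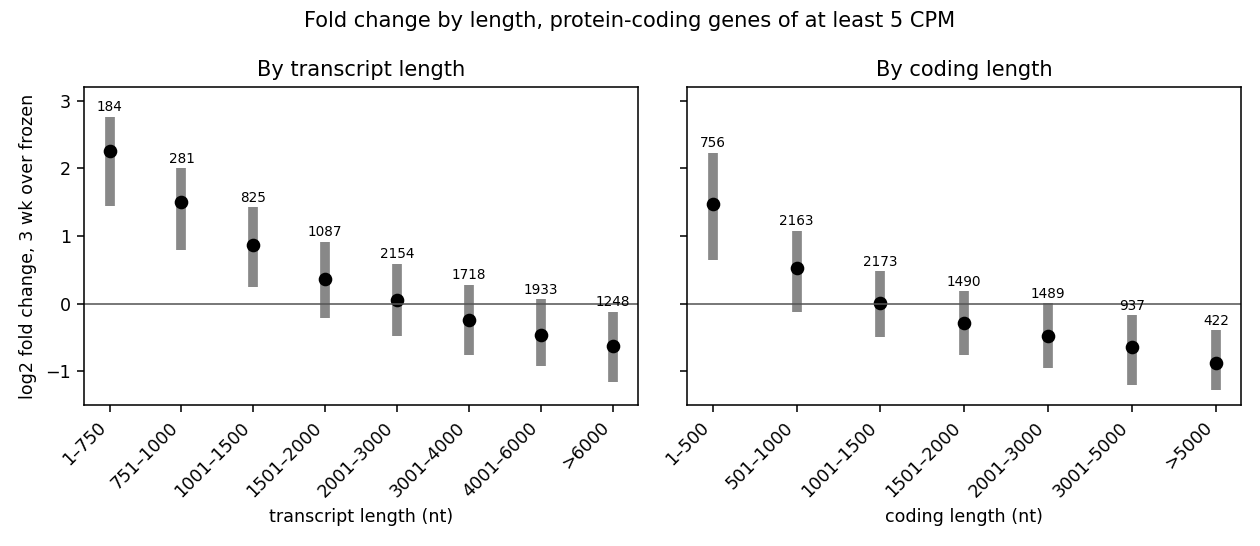
Median (points) and quartiles (bars) of the log2 fold change, FFPE 3 wk over frozen, in protein-coding genes with a mean of at least 5 CPM, by transcript length (left) and coding length (right) in nt. The number of genes stands above each bar. The medians fell at each step, from 2.26 at up to 750 nt to -0.62 above 6000 nt of transcript.

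The respiratory chain shows this within 1 set of proteins that work together. Of 74 tested subunit genes of 82 in the table, 50 were higher, 8 lower and 16 did not pass, with a median of 1.47. The higher ones had a median coding length of 385.5 nt and the lower ones of 1514 nt. Cox8a, a small subunit of cytochrome c oxidase, had 44.7, 40.8 and 41.6 CPM in frozen and 393, 458, 426 and 422 CPM in FFPE 3 wk pieces. The groups were far apart, with a log2 fold change of 3.33 ± 0.12 (adjusted p = 1.17e-06). Uqcr11 of complex III (168 coding nt) rose from 17.1, 15.6 and 13.6 CPM to 147, 165, 200.2 and 265 CPM (3.65 ± 0.24), and Cox6a1, Ndufa6 and Ndufb2 rose by 2.69 ± 0.13, 2.77 ± 0.14 and 3.18 ± 0.15. The lower ones were mostly the large catalytic and core subunits. They were Sdha of complex II (-0.61 ± 0.10), Ndufs1 and Ndufs3 of complex I, Uqcrc1 and Uqcrc2 of complex III, and Atp5a1, Atp5b and Atp5g1 of the ATP synthase. Atp5a1, the alpha subunit, went from 1247, 1178 and 1366 CPM to 742, 743, 875 and 895 CPM (-0.63 ± 0.11; adjusted p = 0.00239). Atp5g1 is an exception in size, with 408 coding nt and a log2 fold change of -1.62 ± 0.41.

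Ribosomal and proteasome genes divided in the same way. Of 74 tested mitochondrial ribosomal protein genes 36 were higher, 3 lower (Mrpl24, Mrps5 and Mrps31) and 35 did not pass (median 1.14), with median coding lengths of 490.5 and 1152 nt in the first and second of these sets. Mrpl52, of 363 coding nt, rose from 8.60, 8.72 and 7.80 CPM to 78.0, 72.2, 92.6 and 77.2 CPM (3.26 ± 0.18). Of 66 tested cytosolic ribosomal protein genes 29 were higher, 8 lower and 29 did not pass (median 0.96). Rpl23 (3.52 ± 0.19), Rps26 (3.41 ± 0.24) and Rps20 (3.27 ± 0.19) rose, while Rpl35 had 1099 counts in frozen pieces and none in FFPE 3 wk pieces, at least 87.0-fold lower. This family has many processed pseudogenes, 95.1% of the Rpl35 transcript occurs elsewhere in the transcriptome, and 5 of the 8 lower and 8 of the 29 higher genes share over 50% of their sequence, so these single values are uncertain. Among 37 proteasome subunits 11 were higher (29.7%) and 6 lower (16.2%), the latter near the share over all genes. The higher ones included Psmb2 (2.02 ± 0.19), Psmb10 (1.37 ± 0.18) and Psmb1 (1.08 ± 0.16) of the catalytic core particle. The lower ones had a median coding length of 1458 nt against 723 nt and included Psmd1, Psmd2 and Psmd3 of the regulatory particle.

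Secreted hepatocyte proteins split between small and large. Of 14 apolipoproteins, which carry lipids in plasma, 7 were higher and 2 lower. Apoc1 rose from 700.0, 639 and 612 CPM to 4468, 4521, 5839.6 and 5735 CPM (2.98 ± 0.13; adjusted p = 4.51e-06), and Apoc3, an inhibitor of lipoprotein lipase, rose by 2.82 ± 0.13. Apob, the very large protein of VLDL and chylomicrons, fell from 9384, 8505 and 8391 CPM to 2930.2, 3372, 2491 and 2425 CPM (-1.64 ± 0.12; adjusted p = 2.9e-05). Apoa1, with 792 coding nt, lay between them at 3500.4 to 4653 CPM in frozen and 3529 to 3973 CPM in FFPE 3 wk pieces, groups that overlapped (-0.10 ± 0.11; adjusted p = 0.559). Ttr, the thyroxine carrier transthyretin, rose from 2143 to 2359 CPM to 8453 to 9576 CPM (2.03 ± 0.08). Alb fell by 0.88 on the log2 scale (SE 0.07; adjusted p = 4.25e-05), without overlap. In the wider list of 27 secreted hepatocyte proteins 8 were higher and 13 lower, with median coding lengths of 522 and 1824 nt.

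**Figure D4:**
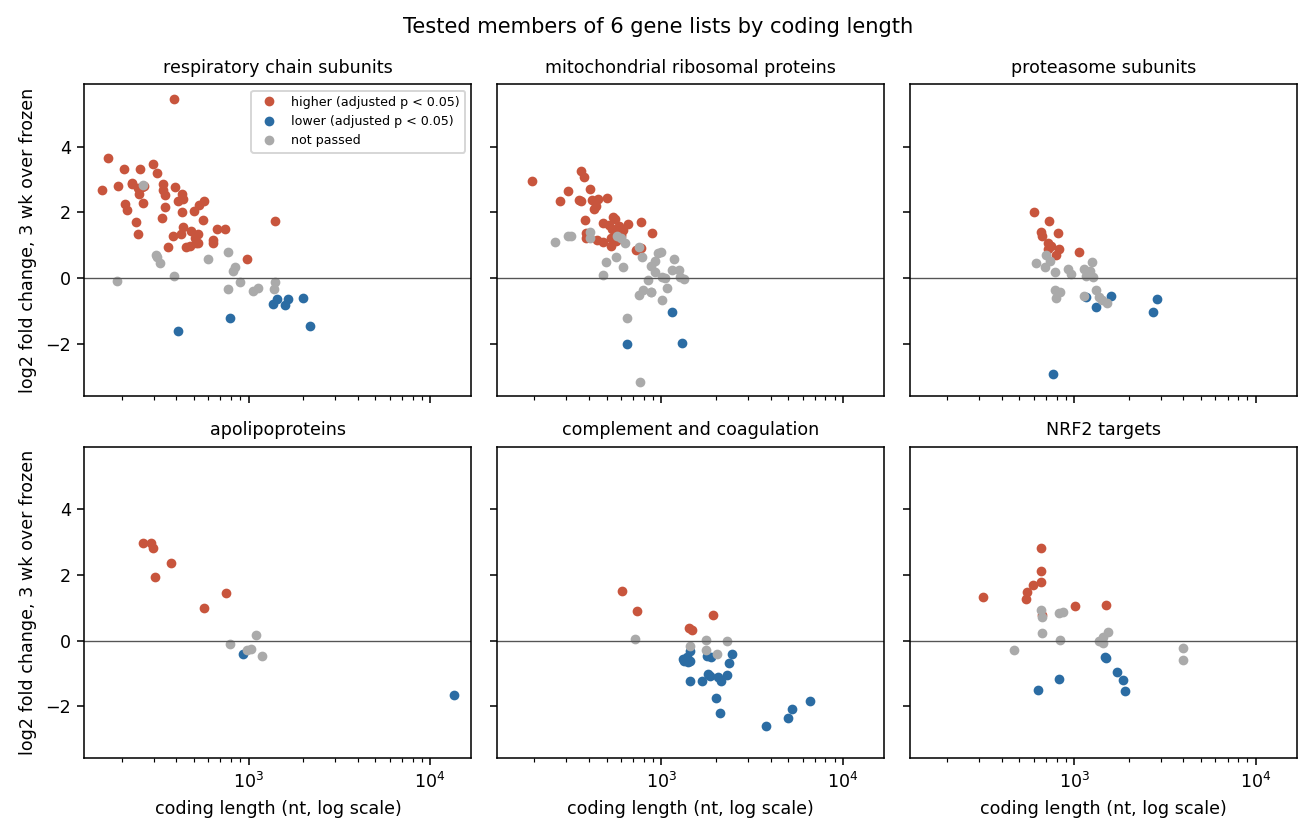
Log2 fold change, FFPE 3 wk over frozen, against coding length (nt, log scale) for every tested member of 6 gene lists, coloured by whether it passed the test. In all 6 panels the members called higher had the shorter median coding length, such as 306 nt against 7224 nt in apolipoproteins.

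Complement and coagulation genes, most of them made in hepatocytes, were largely lower. Of 34 tested, 23 were lower, 5 higher and 6 did not pass (median -0.59). C3, the central complement component, went from 20115, 19212 and 18329 CPM to 3566, 3837, 3811 and 3894 CPM. The spread within each group was small beside the log2 fold change of -2.35 ± 0.07 (adjusted p = 3.67e-07). C4b (-2.08 ± 0.12), clotting factor F5 (-1.83 ± 0.14) and kininogen Kng1 (-1.24 ± 0.08) fell with it, and C8g, Mbl2, F9, Klkb1 and Serpinf2 rose. The median of this list lay 0.60 below the medians of all genes in the same ranges of coding length, a comparison chosen after seeing the data. For the cytosolic ribosomal, mitochondrial ribosomal and respiratory chain lists the same difference was -0.06, 0.28 and 0.36. Lower calls also rose with level in protein-coding genes, to 44.4% above a mean of 1000 CPM. Complement and coagulation genes were not compared with genes of the same level, so their lower calls are not shown to be particular to them.

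Most very long mRNAs were lower. Of 28 tested, 16 were lower, 1 higher (Ttn) and 11 did not pass (median -1.22). The share of counts on this list was 2.03% to 2.22% in frozen and 0.764% to 0.873% in FFPE 3 wk pieces. Lrp1, a large endocytic receptor, fell from 1875, 1934 and 1963 CPM to 622, 743, 713 and 689.7 CPM (-1.48 ± 0.09). Ubr4, Huwe1, Dync1h1 and Vps13c were among the others that fell. In the extracellular matrix list, 6 of 28 were lower and 5 higher, yet its share of counts fell from at least 0.632% to at most 0.282%. The list holds fibronectin, Fn1, which hepatocytes make for plasma, at 4262, 3938 and 4278 CPM in frozen and 1175, 1289, 1035 and 1238 CPM in FFPE 3 wk pieces (-1.81 ± 0.09). Sparc and the inhibitors Timp2 and Timp3 were among the genes that rose.

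Among enzymes of liver metabolism there were more lower than higher calls in each list. Xenobiotic P450 genes were lower in 15 and higher in 3 of 37, urea cycle and amino acid catabolism in 12 and 1 of 30, glycolysis and gluconeogenesis in 8 and 0 of 19. Fatty acid oxidation genes were lower in 13 and higher in 6 of 28, cholesterol synthesis in 8 and 3 of 22, lipogenesis in 8 and 3 of 20, and bile acid synthesis and transport in 10 and 3 of 21. The list medians lay between -0.64 and -0.33, against -0.03 over all genes. Over all genes 13.2% were higher and 13% lower, but calls rose with level in protein-coding genes. At a mean of 50 to 200 CPM 31% were lower and 19.7% higher, and at 200 to 1000 CPM 39.3% and 26.9%. Above 1000 CPM 44.4% were lower and 29.6% higher. The lists were not compared with genes of the same level, so their lower calls are not shown to be particular to metabolism. Cps1, which commits ammonia to the urea cycle, fell from 6572, 6961 and 8896 CPM to 2252, 2568, 2399 and 2866 CPM (-1.57 ± 0.12). Cyp2e1, the P450 that oxidises ethanol and furan, went from 10893, 9164 and 11057 CPM to 5000.4, 4972, 5272 and 5048 CPM (-1.03 ± 0.08). Cyp2c29, with a coding sequence of nearly the same length, rose instead, from 1424, 1224 and 1318 CPM to 2513, 2312, 2468 and 2463 CPM (0.88 ± 0.08; adjusted p = 0.000109). Fads2, the delta-6 desaturase, had 1281, 1019.9 and 1575 CPM in frozen and 148, 139, 128 and 237 CPM in FFPE 3 wk pieces. Its log2 fold change of -2.99 ± 0.24 was among the 8 largest falls at high levels, with only 1332 coding nt. Mup10, Ugt1a1, Gm4788, Abca3, Gna12 and Gpam were also among these 8, at -3.91 to -2.58. Of the last 300 bases of the transcript, 88.8% was shared with other genes in Abca3, and 100% in Mup10 and Ugt1a1.

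Stress and signalling lists did not move one way. NRF2 targets, the antioxidant and detoxification genes, were higher in 10 and lower in 7 of 30, and their share of counts rose from 0.522% to 0.536% to 1.14% to 1.41%. Much of that was Gstm1, a glutathione transferase, at 592, 549.6 and 649 CPM in frozen and 3792, 3528, 4576 and 4938 CPM in FFPE 3 wk pieces (2.82 ± 0.14). The ferritin genes Fth1 (1.26 ± 0.08) and Ftl1 (1.49 ± 0.11) and the peroxiredoxin Prdx1 (1.69 ± 0.12) rose, while Gclc (-1.52 ± 0.16), Gclm, Txnrd1 and Me1 fell, with median coding lengths of 654 and 1497 nt for higher and lower members. Acute phase genes were higher in 8 and lower in 2 of 20, among them the small proteins Saa1 (2.57 ± 0.27) and hepcidin, Hamp (2.37 ± 0.30). Heat shock genes were lower in 8 of 17, with Hspa8 at -1.63 ± 0.16 and Hsp90ab1 at -1.11 ± 0.11, and higher in 1. ER stress genes were higher in 3 and lower in 4 of 19, interferon-stimulated genes in 4 and 1 of 22, p53 targets in 2 and 1 of 22, and immediate early genes in 3 and 0 of 17. Over all genes 13.2% were higher and 13% lower, and with so few calls these 4 lists show no result of their own. Nuclear receptors and hepatocyte factors were lower in 8 and higher in 2 of 23, with Nr1i3 at -1.99 ± 0.19 and Cebpb at 2.45 ± 0.22. Clock genes were lower in 3 of 19 and mitosis and replication genes in 3 of 24, near the 13% lower over all genes, with none higher. All 3 mitosis calls (Ccne1, Kif11 and Pcna) were lost when any 1 frozen library was left out. Zinc finger protein genes, with 15 higher and 9 lower of 284 and a median of 0.00, were below the share called over all genes in either direction. They were not compared with genes of the same level.

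Markers of the other liver cell types were present in both kinds of piece, and in bulk samples fewer cells of a type cannot be told apart from less RNA per cell. Of 14 tested Kupffer cell and macrophage markers 3 were higher, the complement C1q chains C1qa (1.47 ± 0.38), C1qb (2.23 ± 0.38) and C1qc (2.57 ± 0.36), which are short messages. The call of C1qa was lost without FFPE 3 wk animal 04, frozen animal 02 or frozen animal 06. Summed over the list, the frozen piece of animal 04 had 947 CPM against 349 and 392 CPM in the other frozen pieces. The FFPE 3 wk piece of the same animal had 1597 CPM against 649 to 799.6 CPM, so animal 04 was highest in both kinds of piece. Sinusoidal endothelial markers were higher in 3 and lower in 2 of 12, with Clec4g at 1.79 ± 0.14 and the longer Kdr at -1.59 ± 0.32. The endothelial call of Stab1 (lower) was lost in 6 alternatives, and those of Clec4g, Fcgr2b and Kdr in none. Stellate cell markers were higher in 3 and lower in 3 of 12. Of these calls, Acta2 was lost in 9 alternatives, Colec11 in 6, Hand2 in 4 and Reln in 3, and Dcn in none. Over all genes 13.2% were higher and 13% lower, and with so few calls the counts in these marker lists show no result of their own. No cholangiocyte marker passed among 5 tested.

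Titin, the giant protein of striated muscle, was the 1 very long mRNA called higher, and it is itself 1 of the 14 skeletal muscle markers. Ttn had 0.188, 0.291 and 0.218 CPM in frozen and 3.87, 133, 2.69 and 14.8 CPM in FFPE 3 wk pieces, highest in animals 03 and 06 (7.35 ± 1.62; adjusted p = 0.00958). It lost its call with the animal as a block, in a fit that also left out animal 03. Atp2a1, the calcium pump of fast muscle, had 82.4 and 44.3 CPM in animals 03 and 06 and 0.0927 to 1.29 CPM in the other FFPE 3 wk pieces (6.93 ± 1.87). Its call was lost without those libraries and whenever a frozen library was left out. The smooth muscle markers Tagln (2.58 ± 0.41) and Acta2 (3.72 ± 1.11) were also called, Acta2 at 36.7 CPM in animal 06 and 0.775 to 9.08 CPM in the other FFPE 3 wk pieces. The call of Acta2 was lost in 9 alternatives, among them each frozen library left out and FFPE 3 wk animal 03, 04 or 06 left out. The part of muscle tissue in other results was not tested gene by gene. With animals 03 and 06 left out, 3030 of 3184 genes called with all libraries were called the same way and none the opposite way.

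Near-identical gene families gave some of the largest differences in both directions. Major urinary proteins (Mup), pheromone carriers made in liver, are encoded by a cluster of nearly identical genes on chromosome 4. Mup10 fell from 1184, 861 and 578 CPM to 56.0, 64.9, 66.4 and 44.7 CPM (-3.91 ± 0.25; adjusted p = 1.43e-05). Mup11 rose from 17.8, 6.53 and 2.10 CPM to 408, 245, 206 and 58.6 CPM (4.70 ± 0.87; adjusted p = 0.00406). The coding sequences of these 2 genes are 98.9% identical, at 540 of 546 aligned positions with 3 gap positions. Of the last 300 bases of the transcript, 100% was shared with other genes in Mup10 and 61.35% in Mup11. How single reads were assigned to the 2 genes was not examined. A coding stretch of 60 bases is shown as an example of how little they differ, with capitals for the bases that differ (GENCODE M21, minus strand of chromosome 4).
Mup10 coding stretch: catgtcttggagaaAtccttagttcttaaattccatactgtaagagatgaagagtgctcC
Mup11 coding stretch: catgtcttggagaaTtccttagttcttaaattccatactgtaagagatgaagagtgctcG

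Of 14 tested Mup genes 6 were higher and 2 lower (Mup7 and Mup10). The whole family took 0.194% to 0.328% of counts in frozen and 0.535% to 0.909% in FFPE 3 wk pieces, so the sum rose although single members moved in opposite directions. Mup3, which shares only 15.6% of its sequence, rose from 2008, 1561 and 1412 CPM to 6716, 7069, 6141 and 5015 CPM (1.91 ± 0.16). Mup4 (6.85 ± 1.32) lost its call with the animal as a block. Among the other largest falls, Cyp3a41a had 2467 counts in frozen and none in FFPE 3 wk pieces, at least 195-fold lower, and shares 98.6% of its transcript with related genes. Ces2c, a carboxylesterase, had 1157 and 0 counts, at least 91.6-fold lower, and shares 42.2% of its transcript. Ugt1a6a and Ugt1a1, glucuronosyltransferases whose transcripts share their last exons with the rest of the Ugt1a locus, were at -5.59 ± 1.03 and -3.64 ± 0.40. Ugt1a1 went from 522, 518 and 537 CPM to 49.6, 47.9, 13.8 and 58.1 CPM. Alg1 (-5.40 ± 1.31) and Rybp (-5.01 ± 1.44) lost their calls when any 1 frozen library was left out, and Rybp also without FFPE 3 wk animal 02 or 04. So did Sprtn, with 1397 counts against 3 and a 95% counting interval of the fold of 37.8 to 537. Mup7 (-5.51 ± 1.33) lost its call without the frozen library of animal 02 or without FFPE 3 wk animals 03 and 06. Ccdc85c (-4.91 ± 1.11) lost its call without frozen animal 04. Gm1821 (-5.86 ± 1.25) and BC005764, with 852 counts against 2 and a counting interval of the fold of 27.9 to 837, were also among the 12 largest falls. Gm1821 is annotated as a processed pseudogene and shares 89.2% of its sequence, and BC005764 had no match in the reference. The last 300 bases of the Alg1 transcript were 100% shared with other genes. The 12 largest rises also held Gm9159 (7.16, SE 1.4), Rab26os (6.56 ± 1.03), Nrp (6.29 ± 0.85, a symbol matched only through a synonym) and Toporsos (5.58 ± 0.54). The 477 tested genes with over 50% shared sequence had a median absolute log2 fold change of 1.06, against 0.678 for the 6159 genes with none.

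Below the abundant genes, FFPE 3 wk libraries scattered. For genes at 1 to 5 CPM in frozen pieces the median SD of log2 CPM was 0.138 among frozen and 1.05 among FFPE 3 wk pieces. Above 100 CPM it was 0.0998 and 0.223. Of the genes at 1 to 5 CPM, 55.8% had no count in at least 1 FFPE 3 wk library, and 0.0662% of those above 100 CPM did. These values were taken at full depth, 44980028 to 52810289 counts in frozen and 3666173 to 10481659 in FFPE 3 wk libraries. The ranges were also set by the frozen level, which favours counts in frozen pieces. How much of the scatter and of the zeros came with depth was not tested. Of 11494 genes with at least 1 CPM in each frozen piece, 50 had no count in any FFPE 3 wk library, among them Kpna2, Erh, Bdnf and Plk4, picked after their values were seen. Over 50% of the sequence was shared with other genes for 10 of these 50 and for 431 of the 11494. The shared part was 92.4% in Kpna2 and 86.0% in Erh, and 10.7% in Bdnf and 5.48% in Plk4. Of 9128 genes with at least 1 CPM in each FFPE 3 wk piece, 3 had no count in any frozen library, Snora74a, Rnu12 and Oaz1. Oaz1, the ornithine decarboxylase antizyme, had 135 counts in FFPE 3 wk pieces, at least 189-fold higher, and 53.9% of its transcript occurs elsewhere. At an equal depth of 3666173 counts, 13853 ± 140.1 genes (SD, n = 3) had a count in frozen and 12072 ± 1038 (n = 4) in FFPE 3 wk pieces, which did not overlap (exact permutation test, two-sided, p = 0.0571, the smallest possible; adjusted 0.171). At 1833086 counts they overlapped, with 12957 to 13247 and 10557 to 13003 genes (exact permutation p = 0.114). Genes with at least 10 counts numbered 10370.3 ± 141 and 10509 ± 419.6 (exact permutation p = 0.686), values that overlapped.

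Of 15 genes often used as references, 4 were higher and 3 lower. Actb rose from 363, 397 and 268 CPM to 1383, 1459, 1874 and 1748 CPM (2.24 ± 0.17), B2m from 915, 910.5 and 804 CPM to 2433, 2469.8, 2584 and 2579 CPM (1.52 ± 0.09). Ywhaz (2.34 ± 0.13) rose too. Eef1a1 fell from 2058, 2084 and 2073 CPM to 658, 577, 732 and 778 CPM (-1.59 ± 0.11). Sdha fell by 0.61 and Rplp0 by 0.49 on the log2 scale, and the call of Rplp0 was lost in 13 alternatives. Hprt (0.38 ± 0.17), Polr2a (-0.03 ± 0.24), Pgk1 (-0.15 ± 0.35), Gusb (-0.31 ± 0.34), Tbp (0.49 ± 0.48) and Tfrc (-0.65 ± 0.51) did not pass. Gapdh had only 1.96 to 3.73 CPM in frozen and 0 to 9.70 CPM in FFPE 3 wk pieces, and 82.5% of its transcript is shared with other genes, so its value of -0.03 ± 1.71 says little.

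The same contrast could be set beside that of furan-treated livers, which used other animals (3 frozen and 4 FFPE 3 wk libraries) and therefore shares no library with it. There, 5703 of 12599 genes were called (45.3%). Of the 1605 genes higher in control livers 1594 were tested in furan livers, 99.4% had the same sign and 1462 (91.7%) were called higher. Of the 1583 lower genes 1582 were tested, 99.4% had the same sign and 1429 (90.3%) were called lower, and none of either set was called in the opposite direction. Over all 12006 genes tested in both, called in control livers or not, 83.7% had the same sign. Of these 12006 genes, 45.2% were called in furan livers with the sign of control livers and 129 genes with the opposite sign. Pearson's r of the fold changes was 0.790 across all 12006 genes tested in both and 0.918 across the 9610 with a mean of at least 5 CPM in control livers, as descriptions across genes. Ptms rose by 3.77 ± 0.10, Malat1 by 3.65 ± 0.21 and Cox8a by 3.22 ± 0.12 in furan livers, and C3 was at -2.33 ± 0.11. Ces2c and Rpl35, at 0 counts in FFPE 3 wk control pieces, were at -3.82 ± 0.54 and -5.38 ± 0.81 in furan livers. A test of the difference between the contrasts (edgeR, interaction term) called none of 13156 genes, with 590 at an unadjusted p under 0.05. Without the FFPE 3 wk control library of animal 02 it called 5 genes. This does not show that the effects were equal.

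**Figure D5:**
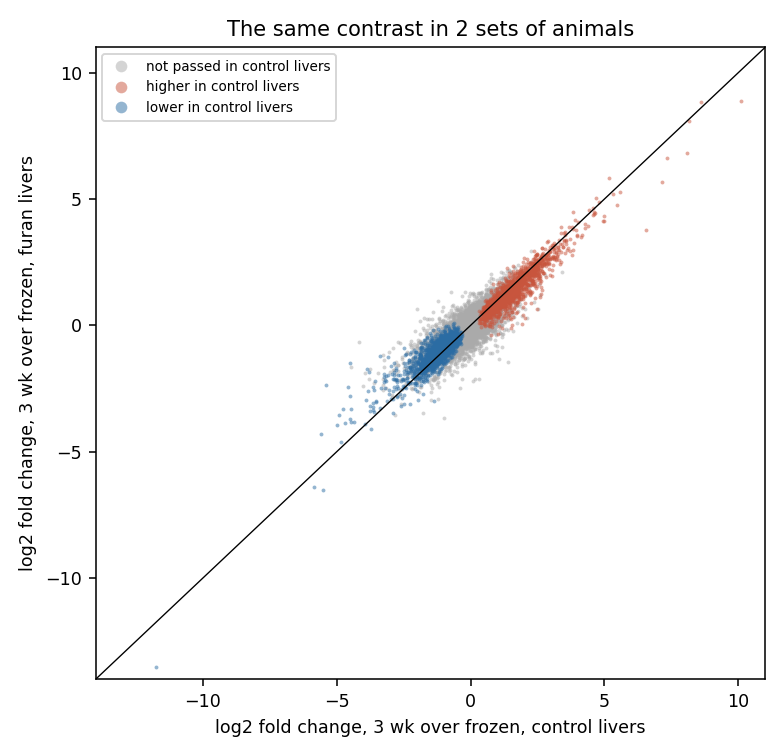
Log2 fold change, FFPE 3 wk over frozen, in control livers (x axis) and furan livers (y axis) for 9610 genes with a mean of at least 5 CPM in control livers, coloured by their call in control livers, with the line of equal values. Points lie along the line (Pearson's r 0.918, against 0.790 over all 12006 genes tested in both), and genes called higher or lower in control livers lie almost all on the same side of 0 in furan livers.

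Against FFPE pieces of the same livers fixed for 18 h, the FFPE 3 wk pieces differed in 1292 of 12242 genes (10.6%), 523 higher (4.27%) and 769 lower (6.28%). That comparison also differs in the number of sections. DESeq2 called 2140 genes, and leaving out 1 library gave 673 (18 h animal 02) to 2029 (3 wk animal 06). Other libraries that moved the count over 1.5 times were those of 18 h animals 03 (682) and 04 (720). Ptms (1.25 ± 0.09) and Chchd2 (0.98 ± 0.09) were higher at 3 wk than at 18 h, while Apoc1 was lower (-0.96 ± 0.10; adjusted p = 0.000214), as were C3 (-0.92 ± 0.07) and Apoa1 (-1.25 ± 0.08). Malat1 (0.08 ± 0.23), Cox8a (-0.13 ± 0.09) and Fn1 (0.10 ± 0.11) did not pass between the fixation times. Rn45s did not pass either (-1.72 ± 0.65; adjusted p = 0.131).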

How the data were processed

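The authors deposited a table of read counts per gene for poly(A)-selected, unstranded libraries. The submitters' processing notes name CASAVA 1.8.2, STAR 2.3.0, featureCounts 1.4.4 and the mm9 build, and other settings are not given in the sources used here. Columns were matched to samples by group and animal number, and 2 columns whose numbers no label gives were not used. A frozen piece of animal 03 was not analysed here. Gene lists, comparisons and rules were chosen with earlier results of these data known.

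The deposited counts were fitted with edgeR 4.0.16 (quasi-likelihood test, TMM scaling, filterByExpr, R 4.3.3) on the 7 libraries, with Benjamini-Hochberg adjustment over all tested genes and a threshold of 0.05. CPM values of single genes are TMM-scaled, summed marker CPM are scaled to total counts, and values after ± are standard errors unless stated otherwise. The script was tested on simulated data. Alternatives used DESeq2 1.42.0, limma 3.58.1, other scalings and filters, thinned counts, a replicate block and left-out libraries. The libraries with muscle transcripts left out together and limma voom with group variances were chosen after seeing the data. Animal numbers come from the livers, and deviations of pieces with the same number correlated at 0.122, 0.153 and 0.127 over 9639 genes, against -0.128 to -0.00839 for other pairs.

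Named genes are the 12 largest changes each way that passed the test without overlap of the groups and averaged 5 CPM or more in the higher one, the 8 largest each way at 200 CPM or more, up to 4 genes of smallest p per list, all structural RNAs and reference genes, and Alb, Rn45s, Malat1, Apob and Cyp2e1. Others are named to identify members of a list and were chosen after their values were seen. Transcript lengths, sequences and shares of 50-base words found in other genes came from GENCODE M21 (GRCm38), not the build of the counts, for 23640 of 24015 gene symbols (98.4%), of which 949 matched through a synonym. Analyses used Python 3.11.15, pandas 2.3.3, numpy 2.4.6, scipy 1.17.1 and matplotlib 3.10.9. Some genes that the rule names are not reported here.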

Additional observations from a re-analysis of the deposited data

Results flagged for a closer look

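In 2 of 49 groups of 4 FFPE 3 wk values tested, 1 library stood apart from the other 3, and chance flags about 1 in 20 such groups. Structural RNAs other than Rn45s took 0.01652% of counts in animal 03, against 0.00518% to 0.005946% in the other 3 animals. The total of 3666173 counts in animal 02 was far below the 9708205 to 10481659 counts of the others.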

How the results depend on the processing

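The count of 3188 called genes became 6028 in 1 model of all 6 groups and 5905 without FFPE 3 wk animals 03 and 06. It ranged from 1978 to 4398 with 1 library left out. DESeq2 gave 3978. With the replicate block of the animal, which pairs the pieces of a liver, 2827 genes were called (1220 higher and 1607 lower), 2504 of them among the main calls. That fit also left out FFPE 3 wk animal 03, so its changes are not those of pairing alone. The block ended 12 calls among 219 named genes, added 3 and changed no other. No call of a named gene was reversed in any alternative, but estimates of genes that did not pass, such as Polr2a and Gapdh, changed sign in some. Left-out libraries gave 4263 to 6182 calls in furan livers, 673 to 2029 between 3 wk and 18 h (1292 with all, 2140 by DESeq2) and 0 to 5 for the difference between furan and control livers. The difference in genes detected at equal depth, FFPE 3 wk minus frozen, ranged from -2191 to -1345 at 1 count or more and from 25.33 to 342.3 at 10 or more. At 5 or more it was -142.25, turned to 92.83 with thinning to 1833086 counts, and ranged from -396.0 to 230.3 (without FFPE 3 wk animal 06). Classes whose shares did not overlap numbered 44 to 46. Spearman's correlation of fold change with transcript length was -0.428 over all tested genes and -0.491 at 5 CPM or more, and that with GC content 0.174 and 0.194. The cause of these shifts was not tested. Of genes at 1 to 5 CPM in frozen pieces, 55.8% had no count in at least 1 FFPE 3 wk library, at depths that differed between the groups.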
